A study of Mus musculus with 12 samples.

Results

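The collagen chain genes of the mouse heart were described across a comparison of Egfr knockout and wild-type samples. The 44 genes are all rows of the authors' deposited gene tables whose symbol is Col, a number, the letter a and a number, among 24340 rows. A 45th row, Col4a3bp, begins in the same way but does not encode a collagen chain and was left out. Of the 44 genes, 29 reached an FPKM (a fragment count scaled to the length of the transcript and the size of the library, so that genes can be compared) of at least 0.5 in at least 1 group, and folds were weighed for these alone. The authors' test gave a result for 26 of the 29. By type, 8 of 11 fibrillar genes, all 6 basement membrane (type IV) genes and 15 of 27 genes of other types reached 0.5.

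The labels describe 12 samples in 4 groups of 3: wild-type at 7 weeks (7wkWT), EGFR KO at 7 weeks (7wkKO), and the same genotypes at 9 weeks (9wkWT and 9wkKO). All are called cardiac cells and give no strain, promoter or Cre driver, so the cells in which Egfr was deleted are not given. No label says whether replicate samples are different animals, so the deposited p-values measure only the spread between these samples. The first deposited table sets 7wkKO against 7wkWT, the later one sets 9wkKO against 7wkKO, and they hold 1 FPKM for each group with no value for a single sample. The 9wkWT samples were not analysed here, and both groups of the later comparison are EGFR KO, so ordinary ageing and change particular to the knockout cannot be told apart there. Both comparisons share the 7wkKO samples, so an error in their level enters both folds with opposite sign. Their FPKM in the later table was above that in the first by 0.635% to 0.887% over the 29 genes. 7wkKO values below are those of the first table unless the later table is named.

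In the authors' deposited table, Egfr was listed at an FPKM of 1.197 in 7wkWT against 1.64 in 7wkKO (q = 0.379, Cuffdiff), so it was not lower in the samples labelled as knockout. The labels do not give the deleted part of the gene, and a level over the whole transcript does not check the label. All 8 ventricular and common markers of heart muscle cells were tested, and none was called in either comparison. The standard error implied for the log2 fold of Myh6 at 7 weeks was 2.02, so no call does not show an unchanged level. Atrial muscle markers are a separate list, given below, of which 5 were called in both comparisons. Because the tissue was measured in bulk, fewer cells of a type and less RNA per cell cannot be told apart. A gene was called at a deposited q under 0.05. Depth per sample is unknown, and the standard errors (SE) and 95% intervals of the log2 folds below are those implied by the deposited test statistic.

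Collagens are secreted proteins in which chains wind into a helix of repeated glycine triplets. Fibrillar collagens (types I, II, III, V, XI, XXIV and XXVII) form the load-bearing fibres of connective tissue, and in the heart types I and III, made largely by fibroblasts, tie muscle cells and layers together. Type IV collagen does not form fibres but a sheet-like network in basement membranes, around every heart muscle cell and under the endothelium of vessels. The Col4a1 and Col4a2 chains build the network found in nearly all basement membranes, whereas Col4a3, Col4a4 and Col4a5, or Col4a5 and Col4a6, build networks of narrower distribution, known best from kidney, lung and smooth muscle. The remaining types attach to fibres (FACIT collagens such as XII, XIV and XVI), form beaded microfibrils (VI), form short-chain networks (VIII), line the outside of basement membranes (the multiplexins XV and XVIII) or cross the plasma membrane (XIII).

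The type IV genes lie in head-to-head pairs, and their start regions are shown as a description. The genes of a pair had folds of the same sign below, and the pair of the common network had signs opposite to the other pairs. The signs of those other pairs were also those of most collagen genes. Of 29 folds, 20 were above 0 at 7 weeks and 22 below 0 in the later comparison. A relation between pairing and folds was not tested. In mm10, Col4a1 (chr8:11198423-11312826) and Col4a2 (chr8:11312829-11449287) have 2 bases between their loci, Col4a4 (chr1:82450723-82586849) and Col4a3 (chr1:82586921-82722059) have 71, and Col4a6 (chrX:141165403-141474076) and Col4a5 (chrX:141475419-141689235) have 1342. The windows below run from 250 bases before to 50 bases after a gene's RefSeq start, 5′ to 3′ on the gene's own strand. They are on GRCm38.p6, the same assembly as mm10. For Col4a2 that start lies before the locus start given above, within the Col4a1 locus. Capitals mark CCAAT and GGGCGG or their reverse complements ATTGG and CCGCCC.
Col4a1, chr8:11312777-11313076, minus strand: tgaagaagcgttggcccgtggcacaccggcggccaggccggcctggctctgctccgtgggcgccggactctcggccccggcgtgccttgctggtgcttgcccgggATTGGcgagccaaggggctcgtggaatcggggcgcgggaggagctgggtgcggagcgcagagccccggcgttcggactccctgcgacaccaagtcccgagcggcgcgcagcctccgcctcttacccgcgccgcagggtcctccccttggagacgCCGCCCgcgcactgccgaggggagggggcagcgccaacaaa
Col4a2, chr8:11312555-11312854, plus strand: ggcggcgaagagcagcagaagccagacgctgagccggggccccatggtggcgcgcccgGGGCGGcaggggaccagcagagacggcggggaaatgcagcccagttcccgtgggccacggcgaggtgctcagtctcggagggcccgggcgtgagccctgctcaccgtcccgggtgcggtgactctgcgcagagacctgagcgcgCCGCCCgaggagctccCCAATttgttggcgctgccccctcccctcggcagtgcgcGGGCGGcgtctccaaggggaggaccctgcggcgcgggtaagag
Col4a4, chr1:82586800-82587099, minus strand: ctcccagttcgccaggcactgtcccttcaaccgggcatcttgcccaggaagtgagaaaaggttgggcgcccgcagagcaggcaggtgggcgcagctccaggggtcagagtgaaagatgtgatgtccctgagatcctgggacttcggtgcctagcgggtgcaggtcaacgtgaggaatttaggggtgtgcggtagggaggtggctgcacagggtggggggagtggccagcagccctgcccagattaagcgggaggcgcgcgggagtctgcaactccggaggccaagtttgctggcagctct
Col4a6, chrX:141474027-141474326, minus strand: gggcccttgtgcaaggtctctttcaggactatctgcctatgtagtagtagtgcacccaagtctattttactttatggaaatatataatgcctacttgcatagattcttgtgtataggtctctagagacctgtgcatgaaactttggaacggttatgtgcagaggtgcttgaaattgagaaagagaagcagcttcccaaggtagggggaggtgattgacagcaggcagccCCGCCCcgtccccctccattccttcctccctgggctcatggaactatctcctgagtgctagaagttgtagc
Col4a5, chrX:141475169-141475468, plus strand: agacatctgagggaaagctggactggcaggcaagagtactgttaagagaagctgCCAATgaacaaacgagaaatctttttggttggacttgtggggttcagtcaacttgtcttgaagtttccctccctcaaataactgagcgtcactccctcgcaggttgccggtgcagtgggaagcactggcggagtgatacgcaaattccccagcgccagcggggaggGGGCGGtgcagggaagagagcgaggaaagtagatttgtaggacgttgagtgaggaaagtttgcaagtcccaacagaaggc

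The Col4a1 and Col4a2 windows overlap by 78 bases, and the start of each locus lies within the window of its partner, Col4a2 at position 248 of the Col4a1 window and Col4a1 at position 272 of the Col4a2 window. The Col4a4 window also holds the start of the Col4a3 locus, at position 179, and the table has no entry for Col4a3 itself. The Col4a5 and Col4a6 windows do not hold the start of the partner. CCAAT, searched on both strands, was found in the Col4a1, Col4a2 and Col4a5 windows once each. GGGCGG, also on both strands, was found 3 times in the Col4a2 window and once each in those of Col4a1, Col4a5 and Col4a6. The Col4a1 match and the last Col4a2 match are the same site, within the overlap and read on opposite strands. Neither CCAAT nor GGGCGG was found in the Col4a4 window, and TATAAA was in none of the 5. Among all 32851 windows of the table, 37.4% hold CCAAT, 35.7% hold GGGCGG and 13.6% hold TATAAA. Among the 24 of 29 collagen genes that have a window, these were found in 7, 16 and 3. That is a count of genes with a match in any of their windows, so it is not the same measure as the shares of windows. A match is a description of the sequence only.

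The folds of the type IV genes had opposite signs in different networks, a difference between genes that has no test here. Col4a1, the most abundant collagen transcript in every group, was listed at an FPKM of 181 (7wkWT), 147 (7wkKO) and 200 (9wkKO). Its level was lowest in 7wkKO, but neither step was called: the log2 fold was -0.30 at 7 weeks (SE 0.31, deposited q = 0.545) and 0.44 from 7wkKO to 9wkKO (SE 0.30, q = 0.144). Col4a2, its partner chain and the next in abundance, had values of 132, 113 and 140 in the same order. Its folds of -0.22 (SE 0.29, q = 0.721) and 0.29 (SE 0.28, q = 0.449) had the same signs and were not called either. The 95% intervals of Col4a1 ran from -0.90 to 0.30 and from -0.14 to 1.02.

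The other 4 type IV genes were far less abundant, and their folds had the opposite signs. Col4a3, best known for its loss in Alport disease of the human kidney, was at 1.59, 2.46 and 1.24. It rose at 7 weeks in the authors' deposited table (log2 fold 0.63, SE 0.30, q = 0.0200) and fell from 7wkKO to 9wkKO by 0.996 on the log2 scale (SE 0.29, q = 0.00237). Its head-to-head neighbour Col4a4 was at 2.06, 2.87 and 1.88, with a 7-week fold of 0.48 that was not called (SE 0.29, q = 0.102). Col4a4 then fell by 0.62 (SE 0.28, q = 0.00748). Each of the pair was highest in 7wkKO and lowest in 9wkKO.

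Col4a5, the chain common to both narrower networks, was the most abundant of the 4, at 8.40, 11.4 and 7.28. The 7-week log2 fold of 0.43 was not called (SE 0.26, q = 0.0942), and the gene fell from 7wkKO to 9wkKO by 0.65 (SE 0.25, q = 0.00237). Col4a6 was near the limit of 0.5, with values of 0.595, 0.927 and 0.364. Its 7-week fold of 0.64 was not called (SE 0.42, q = 0.181), and the fall of 1.36 that followed was called (SE 0.44, q = 0.00237). With 1 added to each FPKM that fall was 0.50, since the gene is so low. Col4a3 to Col4a6 together made up 3.89%, 6.35% and 3.07% of type IV FPKM in the same order.

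**Figure D1:**
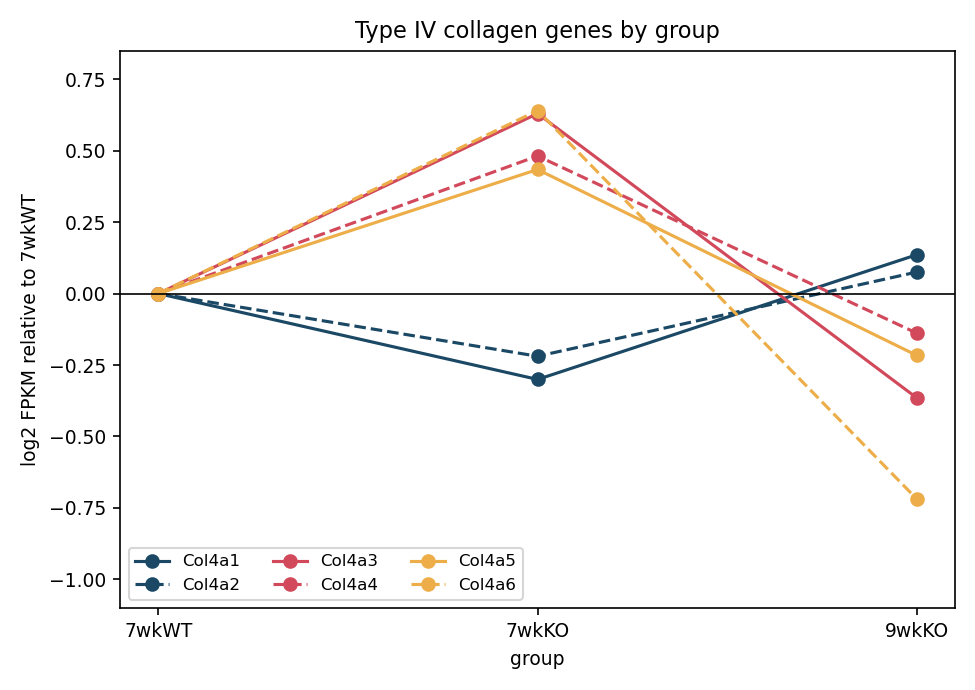
Log2 FPKM relative to 7wkWT (y axis) of the 6 type IV genes in 7wkWT, 7wkKO and 9wkKO (x axis), 1 line for each gene and 1 deposited value for each group; the 9wkKO point adds the fold of the later table to that of the first. Col4a1 and Col4a2 dip at 7wkKO (-0.30 and -0.22), whereas Col4a3 to Col4a6 peak there (0.43 to 0.64) and lie below 0 at 9wkKO (-0.14 to -0.72). At 7 weeks Col4a3 alone was called. In the later comparison Col4a3 to Col4a6 were called lower, and Col4a1 and Col4a2 were not called. No error bars are drawn, and both steps share the 7wkKO samples.

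The isoform table divided Col4a5 further. Isoform NM_001163155 was at 3.14 in 7wkWT and 7.94 in 7wkKO, then 4.42 in 9wkKO, and in the authors' deposited table it rose (log2 fold 1.34, q = 0.0391) and then fell by 0.85 (q = 0.00616). Isoform NM_007736 was at 5.26, 3.41 and 2.86, and neither of its steps was called (q = 0.493 and q = 0.939). The share of Col4a5 assigned to NM_001163155 was therefore 37.4%, 69.9% and 60.8%. In the GENCODE M21 annotation both have the same coding exons, and NM_001163155 keeps 172 bases (chrX:141475467-141475638) in its first exon that are spliced out of NM_007736. The transcripts are 6536 and 6285 bases long, and 251 bases of the first are not in the other, so the division between them rests on few bases. The difference in share was not tested.

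Among the fibrillar genes, the major fibre chains were not called in either comparison. Col3a1, abundant in vessels and other distensible tissue, was at 79.9, 91.1 and 91.1 in the order 7wkWT, 7wkKO and 9wkKO, which is kept below. Col1a1, the main chain of type I collagen, was at 56.3, 64.8 and 63.2, and Col1a2, its partner, at 60.9, 72.1 and 59.1. Their 7-week log2 folds were 0.19 (SE 0.27, q = 0.771), 0.20 (SE 0.26, q = 0.715) and 0.24 (SE 0.26, q = 0.596), each with the 7wkKO value above that of 7wkWT. The interval for Col1a1 at 7 weeks was -0.31 to 0.72. From 7wkKO to 9wkKO the folds were -0.01 (q = 0.997), -0.05 (q = 0.991) and -0.30 (q = 0.324).

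Type V chains regulate the start and width of type I fibres. Col5a1, at 13.7, 15.5 and 14.4, and Col5a2, at 10.3, 11.8 and 10.2, were not called in either comparison. The third chain, Col5a3 (chr9:20770050-20815034), was at 4.79, 3.65 and 7.00. It was lowest in 7wkKO, where the fold of -0.39 was not called (SE 0.28, q = 0.213), and it rose from there to 9wkKO by 0.93 on the log2 scale (SE 0.26, q = 0.00237), the only collagen gene called higher in the later comparison. The share of Col5a3 in type V FPKM was 16.6%, 11.8% and 22.1%. Col11a2, a chain of the cartilage fibre collagen type XI (chr17:34039437-34066242), was at 0.742, 0.803 and 0.431. It was not called at 7 weeks (log2 fold 0.11, q = 0.964) and then fell by 0.91 (SE 0.45, q = 0.0225). Col27a1 was at 1.05, 1.21 and 0.997 without a call.

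Short-chain and FACIT genes gave the remaining calls. Col8a1, a network-forming chain made by vessel wall cells (chr16:57624256-57754737), was at 12.1, 18.6 and 12.9. It rose at 7 weeks (log2 fold 0.62, SE 0.26, deposited q = 0.00500) and fell again by 0.54 (SE 0.25, q = 0.00894), ending 0.08 from its 7wkWT level. Col8a2, its partner (chr4:126286794-126314330), was at 0.716, 1.02 and 0.524. The 7-week fold of 0.51 was not called (SE 0.48, q = 0.491), and the fall of 0.97 was (SE 0.46, q = 0.0145).

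Col12a1, a FACIT chain of tendon and other dense tissue (chr9:79598987-79718722), was at 0.618, 1.02 and 0.464. It rose by a log2 fold of 0.72 (SE 0.36, deposited q = 0.0418) and then fell by 1.15 (SE 0.34, q = 0.00237). Col14a1, a related chain that binds decorin on fibres (chr15:55307750-55520803), was at 5.40, 6.74 and 4.66. Its 7-week fold of 0.32 was not called (SE 0.26, q = 0.368), and it fell from 7wkKO to 9wkKO by 0.54 (SE 0.25, q = 0.00427). Col16a1, at 3.49, 4.40 and 3.89, had folds of 0.34 (q = 0.386) and -0.19 (q = 0.759).

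None of the beaded-filament and multiplexin genes was called by Cuffdiff in either comparison, although Col6a3 had an unadjusted p under 0.05 at 7 weeks, and none was called by the statistic alone. Col6a2 was at 48.7, 53.4 and 51.8, and Col6a1 at 44.3, 46.6 and 44.4. Col6a3, the longest chain of type VI collagen, was at 7.73, 9.44 and 10.6, with folds of 0.29 (q = 0.434) and 0.16 (q = 0.795). Col6a6, at 1.30, 1.18 and 1.12, was not called either. Col15a1, which lies at the outer face of muscle and capillary basement membranes, was at 50.4, 49.6 and 50.1, with log2 folds of -0.02 (interval -0.54 to 0.49) and 0.00 (-0.48 to 0.48). Col18a1, the source of endostatin, was at 6.97, 6.44 and 7.66 and was not called. Col28a1, known from peripheral nerve, was at 1.13, 0.959 and 0.624, and its later fold of -0.63 was not called (q = 0.178).

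Some genes reached 0.5 but were not tested by the authors. Col13a1, the transmembrane chain, was at 0.713, 0.657 and 0.393, Col9a2, a cartilage FACIT chain, at 0.279, 0.609 and 0.232, and Col20a1 at 0.405, 0.3004 and 0.526. Just inside that limit were Col20a1, at 0.526 where highest, and Col9a2, at 0.613 in the later table, and just outside it were Col23a1 at 0.439 and Col26a1 at 0.384. The other 15 genes stayed under 0.5 in every group. Among them were Col2a1, the main cartilage chain, Col9a1, a cartilage FACIT chain, Col7a1 of skin anchoring fibrils and Col17a1 of hemidesmosomes. Col10a1, the growth plate chain, was listed at 0 in all groups, and Col6a4 at 0 except for 0.00302 in 9wkKO.

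**Figure D2:**
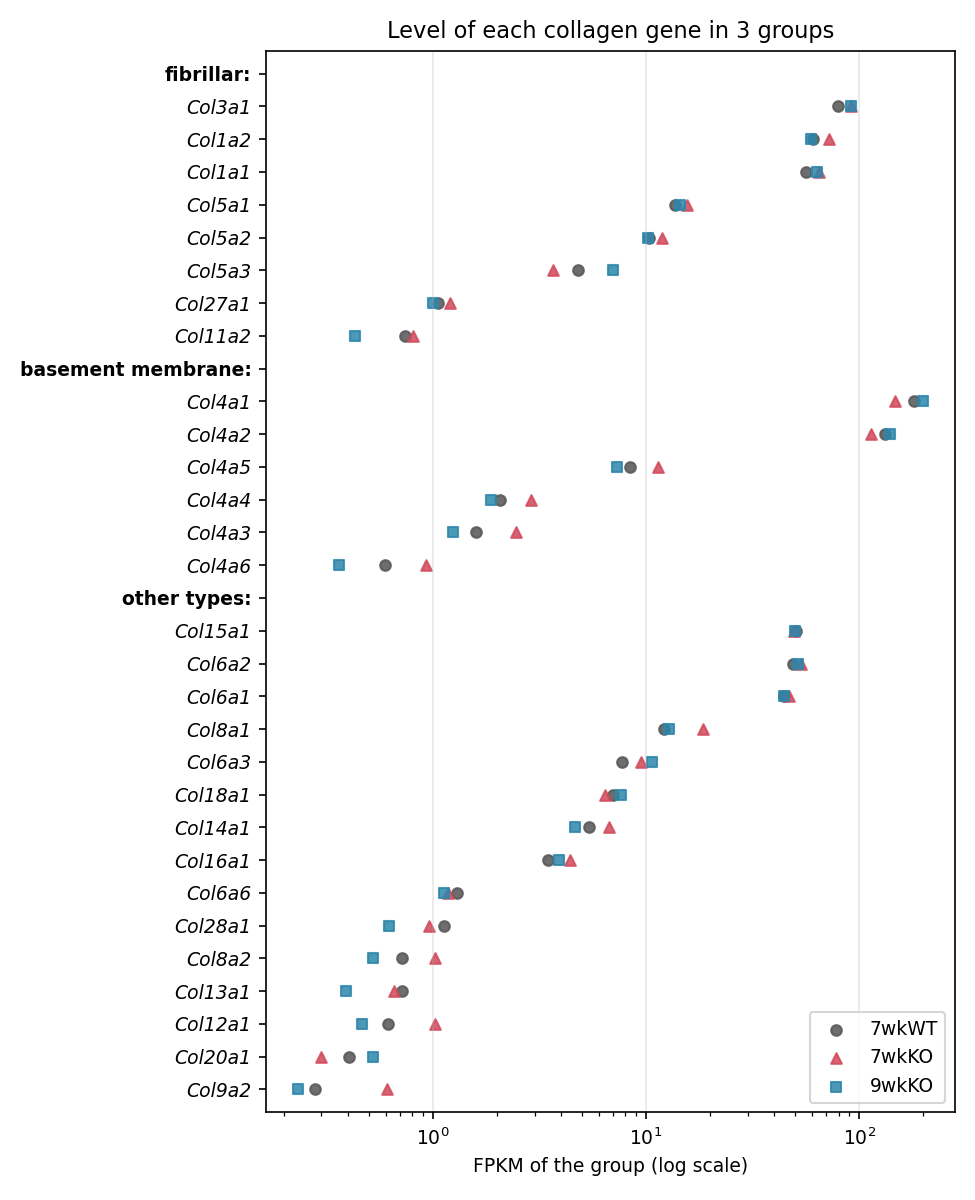
Deposited FPKM on a log axis of the 29 collagen genes that reached 0.5 in any group, by type and then by level, with 1 point for each of 7wkWT, 7wkKO and 9wkKO (1 value for each group, so no error bars; 9wkKO is from the later table). Col4a1 (147 to 200) and Col4a2 (113 to 140) lie above Col3a1 (79.9 to 91.1) and the type I chains (56.3 to 72.1) in every group.

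Counted over the 26 tested genes, 3 were called higher in 7wkKO than in 7wkWT (Col4a3, Col8a1 and Col12a1) and 0 lower by the deposited Cuffdiff q. Calls made up 2.37% of the 11987 tested genes in this comparison (1.67% higher, 0.701% lower). By type the calls were 0 of 8 fibrillar genes, 1 of 6 type IV genes and 2 of 12 of other types, and 1, 4 and 5 genes of these types had an unadjusted p under 0.05. With p recomputed from the deposited statistic alone, none of the 3 calls was kept. With 1 added to each FPKM, the fold of Col4a3 was 0.42 and that of Col12a1 0.32. The calls rest on the deposited p-values, whose normal deviate was 1.74 times the deposited statistic (median over 11867 genes).

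From 7wkKO to 9wkKO, 10 of the 26 were called, 9 lower (Col4a3, Col4a4, Col4a5, Col4a6, Col8a1, Col8a2, Col11a2, Col12a1 and Col14a1) and 1 higher (Col5a3). Calls made up 4.66% of the 12046 tested genes (1.89% higher, 2.76% lower). By type these were 1 higher and 1 lower of 8 fibrillar genes, 4 lower of 6 type IV genes and 4 lower of 12 other genes. Of the 26 tested genes, 16 were called in neither comparison. With p from the statistic alone, Col5a3 alone was called (q = 0.0467). With 1 added to each FPKM, the folds of 5 of the 10 called genes shrank by more than 1.5 times without changing sign. Col4a3 then fell by 0.63, Col4a6 by 0.50, Col12a1 by 0.47, Col8a2 by 0.41 and Col11a2 by 0.34. In the isoform tables, 1.42% of 15470 isoforms were called at 7 weeks and 2.93% of 15531 afterwards. Of the collagen genes, 3 had a called isoform at 7 weeks (Col4a3, Col4a5 and Col8a1) and 10 in the later comparison. That is a count of genes, so it is not the same measure as the shares of isoforms.

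**Figure D3:**
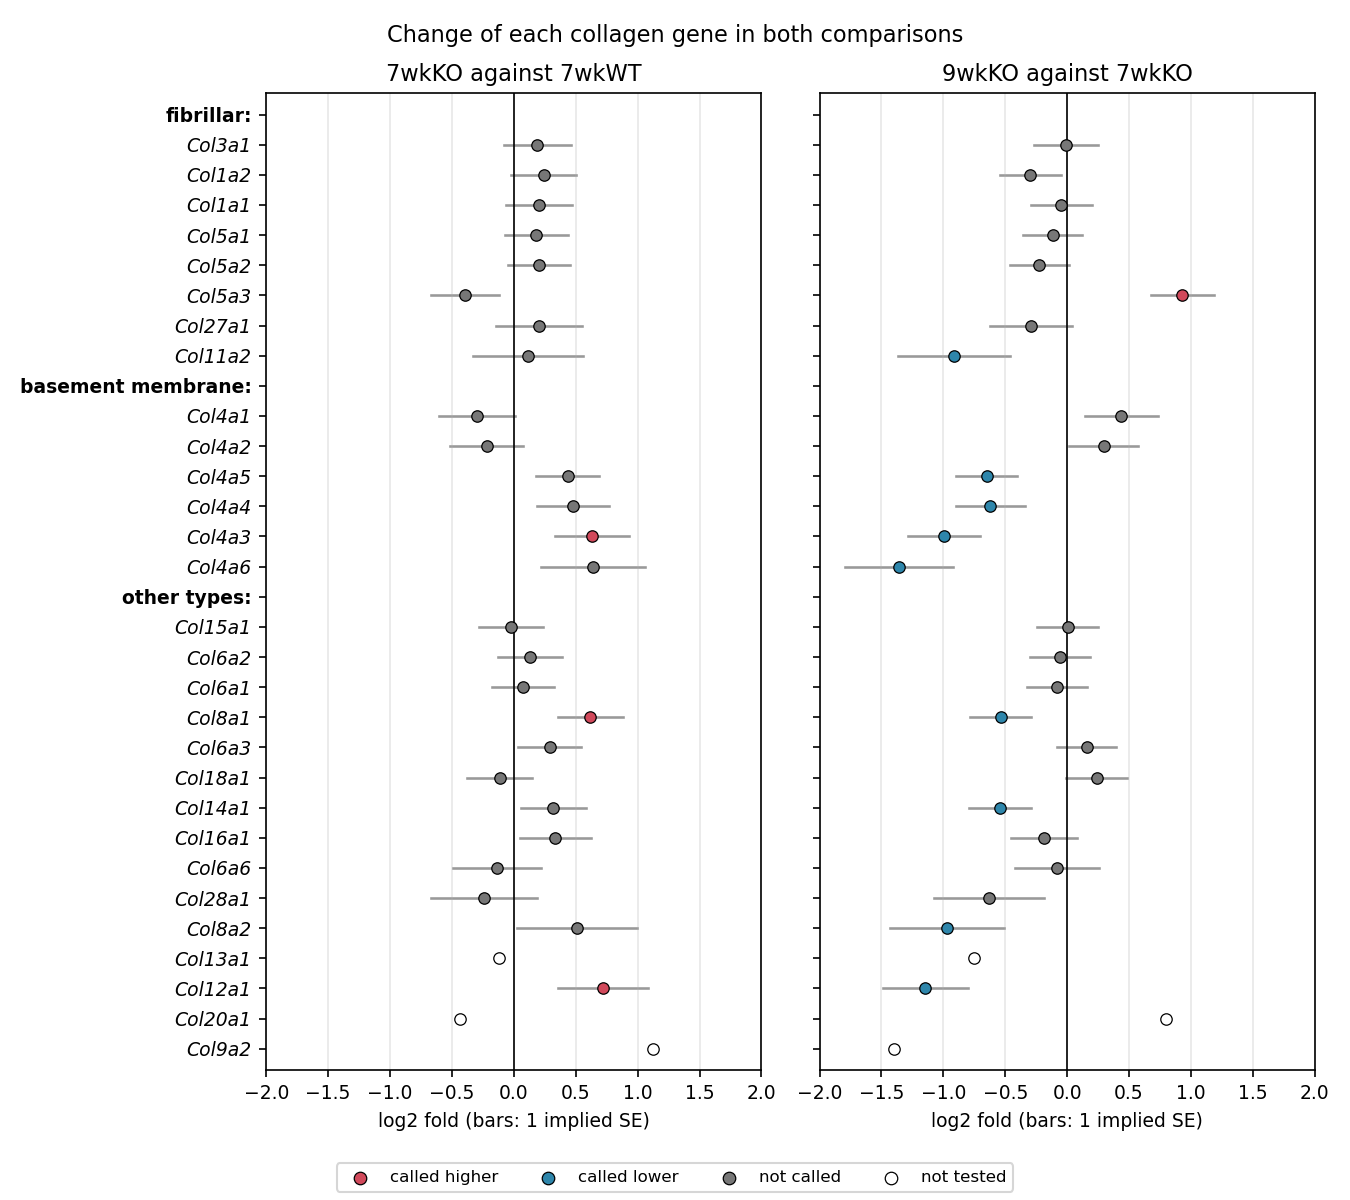
Log2 folds (x axes) of the 29 genes for 7wkKO against 7wkWT (left) and 9wkKO against 7wkKO (right), with bars of 1 SE implied by the deposited statistic; red points were called higher, blue points lower, grey points not called, and open points were not tested. The 3 red points on the left are Col4a3, Col8a1 and Col12a1 (0.62 to 0.72), and the 9 blue points on the right run from Col8a1 (-0.54) to Col4a6 (-1.36) opposite Col5a3 (0.93).

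The median log2 fold at 7 weeks was 0.20 over the 29 genes, and 20 of the 29 folds were above 0. It was 0.20 for fibrillar genes (7 of 8 above 0), 0.46 for type IV genes (4 of 6) and 0.13 for other types (9 of 15). Over all 12720 genes of at least 0.5 the median was -0.000490, and 49.9% of folds were above 0. In the later comparison the median was -0.23, with 7 of 29 above 0, against 0.01 over 12724 genes, of which 52.9% were above 0. The medians by type were -0.17, -0.64 and -0.19. Split by network, Col4a1 and Col4a2 had medians of -0.26 and 0.37, and Col4a3 to Col4a6 of 0.56 and -0.82, so the type IV median stands for neither network. With an FPKM of at least 5 required, the type IV medians turned to -0.22 and 0.29, since Col4a1, Col4a2 and Col4a5 alone remained.

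The level in 9wkKO relative to 7wkWT was set by adding the later log2 fold to the first, since the tables were normalized separately, and it has no deposited test. The 29 genes had a median of -0.02, with 12 above 0, against 0.02 over 12719 genes. The SE of a sum was taken as if both folds were independent. Col5a3 had the highest sum, 0.54 (SE 0.38), followed by Col6a3 at 0.45 (SE 0.35). Col13a1 (no SE, not tested) and Col28a1 (SE 0.62) had the lowest, both at -0.87. Col11a2 at -0.80 (SE 0.63) and Col4a6 at -0.72 (SE 0.61) followed. Col4a3 to Col4a6 had a median of -0.29 and Col4a1 and Col4a2 of 0.11. These sums reuse the folds above and are no further evidence of a difference between networks. Of the type IV genes, Col4a6 alone had a sum further from 0 than its SE (SE from 0.36 for Col4a5 to 0.61).

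By composition, the summed FPKM of all collagen genes was 738, 741 and 788 in the same order of groups, and the 10 most abundant genes held 90.6% to 92.2% of it. Col4a1 and Col4a2 held 42.3%, 35.1% and 43.1%, fibrillar genes 30.8%, 35.2% and 31.3%, and the beaded-filament genes 13.8%, 14.9% and 13.7%. Short-chain genes held 1.73%, 2.64% and 1.70%, and FACIT genes 1.44%, 1.83% and 1.27%. The share of Col4a1 and Col4a2 was lowest in 7wkKO, and the fibrillar, beaded-filament, short-chain and FACIT shares were highest there. The multiplexins held 7.76%, 7.56% and 7.33%. Shares come from 1 value for each group and were not tested.

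Ratios between chains that assemble together differed in how far they moved. The ratio of Col1a1 to Col1a2 FPKM was 0.924, 0.899 and 1.07, that of Col4a1 to Col4a2 was 1.37, 1.30 and 1.43, and that of Col5a1 to Col5a2 was 1.33, 1.31 and 1.41. That of Col6a1 to Col6a2 was 0.908, 0.873 and 0.857. The ratio of Col5a3 to Col5a1 was 0.350, 0.235 and 0.485. Wider shifts than in the first pairs were also seen between Col6a1 and Col6a3 (5.73, 4.94 and 4.18), Col8a1 and Col8a2 (16.9, 18.2 and 24.5) and Col4a5 and Col4a6 (14.1, 12.2 and 19.98). These ratios have no replicate error.

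**Figure D4:**
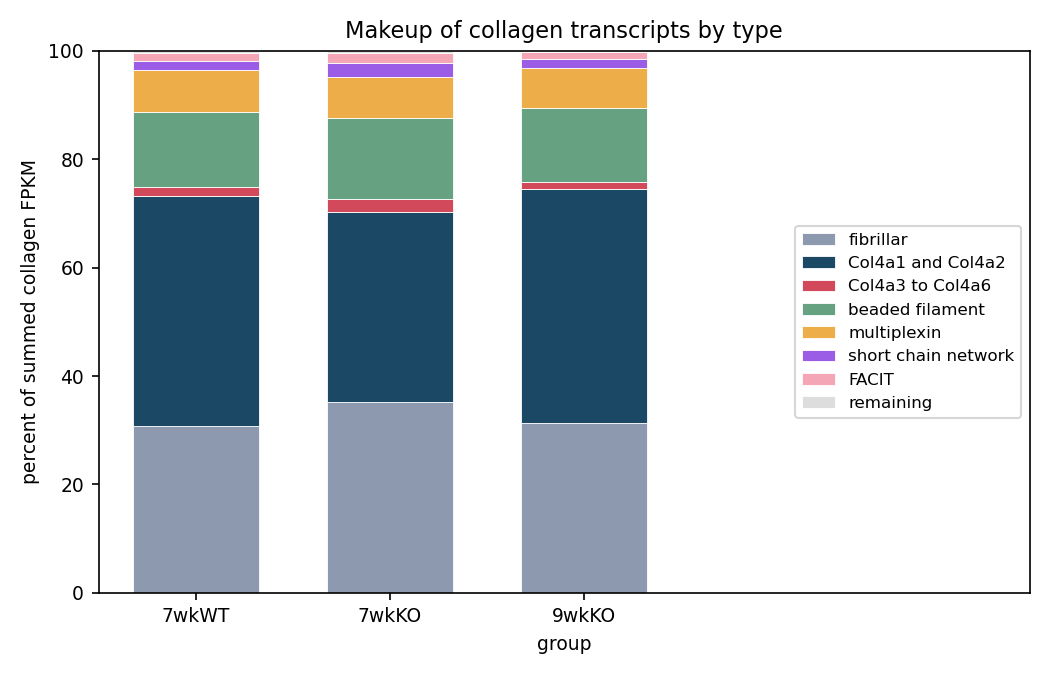
Percent of summed collagen FPKM (y axis) held by each class in 7wkWT, 7wkKO and 9wkKO (x axis), as stacked bars from 0 with 1 deposited value for each group and gene. The share of Col4a1 and Col4a2 is 42.3%, 35.1% and 43.1%, and that of the fibrillar genes 30.8%, 35.2% and 31.3%.

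Over 5 lists of genes that process, bind or break down collagen or build basement membranes beside it, 2 of 54 tested genes were called at 7 weeks (3.70%, beside 2.37% of all genes) and 6 of 55 later (10.9%, beside 4.66%). Of 17 tested genes for folding and modification in the endoplasmic reticulum, 0 were called at 7 weeks by Cuffdiff (3 at an unadjusted p under 0.05, 0 by the statistic alone) and 1 later. That was Plod2, a lysyl hydroxylase that sets crosslink chemistry, at 12.2, 13.4 and 7.49 (later q = 0.00237, lower). Serpinh1, the collagen chaperone, was at 251, 225 and 239, and P4hb, a subunit of prolyl hydroxylase, at 131, 146 and 152. Of 9 tested genes for cleavage and crosslinking outside the cell, 0 were called at 7 weeks (1 at an unadjusted p under 0.05, 0 by the statistic alone) and 1 later, the procollagen C-proteinase enhancer Pcolce2, at 22.3, 25.9 and 19.4 (q = 0.0451, lower).

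Of 11 tested breakdown genes and inhibitors, 1 fell at 7 weeks, the inhibitor Timp4, from 77.2 to 51.9 (deposited q = 0.0154). In the later comparison Mmp14, a membrane collagenase, rose (6.52, 5.81 and 9.30, q = 0.00427). The gelatinase Mmp2 (39.7, 48.3 and 36.3, q = 0.0431) and the inhibitor Timp3 (230, 221 and 145, q = 0.00604) fell there. None of the 5 collagen receptor genes tested at 7 weeks and none of the 6 tested later was called by Cuffdiff (1 and 0 at an unadjusted p under 0.05, 0 by the statistic alone), and Itgb1, the shared integrin chain, was at 142, 144 and 141 and Itga1, a collagen-binding partner, at 16.3, 14.0 and 15.5. Of 12 laminin, nidogen and perlecan genes, which build basement membranes beside type IV collagen, Lama2, of muscle basement membranes, fell in the later comparison (16.8, 19.0 and 14.3, q = 0.0494). None of the calls in these 5 lists was kept with the statistic alone. The 5 lists were chosen with earlier results of these data known, so their shares of calls are a description only.

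Markers of other cells also differed between the groups. The marker and TGF-beta lists were chosen with earlier results of these data known. Their counts of calls beside the shares of all genes are therefore a description only. Counts of calls in this and the next paragraph stand beside 1.67% of all tested genes called higher and 0.701% lower at 7 weeks. In the later comparison these shares were 1.89% and 2.76%. The share of all genes lowest or highest in 7wkKO was not computed, so counts of genes lowest or highest there have no background. Both comparisons share the 7wkKO samples, so an error in their level would also make genes lowest or highest there. The 12 endothelial markers had a summed FPKM of 764, 609 and 785, and 9 of the 12, like Col4a1 and Col4a2, were lowest in 7wkKO. So were 7 of 8 blood and macrophage markers and 8 of 15 laminin, nidogen and perlecan genes. At 7 weeks 1 of the 12 folds was above 0 and none was called by Cuffdiff (8 at an unadjusted p under 0.05). Cdh5, the cadherin of endothelial junctions, was at 157, 116 and 149.6. Later 3 were called higher (Cldn5, Kdr and Emcn). Of the 7 atrial muscle markers, 5, like Col4a3 to Col4a6, Col8a1 and Col12a1, were highest in 7wkKO. The same held for 11 of 12 valve and dense connective tissue markers, 9 of 12 fibroblast markers and 8 of 13 cleavage and crosslinking genes. The 7 summed to 736, 2984 and 838, most of it Nppa (416, 2314 and 767), and the 6 others to 320.0, 671 and 71.0, which is below the 7wkWT sum in 9wkKO. Of 6 tested, 5 rose at 7 weeks and 5 fell in the later comparison (Sln, Myl7, Myl4, Nppa and Mybphl), while Nr2f2 was not called in either and Bmp10 was at 0 in every group. The 12 valve and dense connective tissue markers summed to 84.98, 126 and 62.5. Of 10 tested, 3 were called higher at 7 weeks (Thbs4, Cilp2 and Cilp) and 7 lower in the later comparison, led by Angptl7, Cilp2, Fmod and Comp.

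The 12 fibroblast markers, 2 of which are also in the receptor and breakdown lists, summed to 1574, 1667 and 1490. Postn, a matrix protein of activated fibroblasts and valves, rose and fell (29.6, 45.8 and 31.9), and Lum fell in the later comparison. The 9 pericyte and smooth muscle markers summed to 457, 474 and 537 with no call (1 and then 2 at an unadjusted p under 0.05). The 8 ventricular and common heart muscle markers summed to 62461, 54405 and 54943, with no call and none at an unadjusted p under 0.05. The 8 blood and macrophage markers summed to 888, 695 and 959, with 0 called at 7 weeks (3 at an unadjusted p under 0.05) and 3 called higher later (Alas2, Hba-a1 and Hbb-b1, of which both globins have near-identical copies). A further list is of TGF-beta, a growth factor that raises collagen transcription in fibroblasts. It holds the ligands Tgfb1, Tgfb2 and Tgfb3 and the receptors Tgfbr1 and Tgfbr2 as well as genes that respond to it. Of its 10 tested genes, 8 had a fold above 0 at 7 weeks and 4 were called higher, among them Ctgf, Ltbp2 and the ligand Tgfb2. In the later comparison 4 were called lower, among them Ctgf, Ltbp2 and Tgfbi. Ctgf was at 70.8, 151 and 72.5. With p from the statistic alone, Nppa and Ctgf were called at 7 weeks among these marker and TGF-beta genes. In the later comparison that rule called Cldn5, all 5 atrial genes, Fmod, Comp, Cilp2, Ctgf and Ltbp2. The part of any of these cell types or genes in the collagen results was not tested, and with 1 value for each group it could not be adjusted for.

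**Figure D5:**
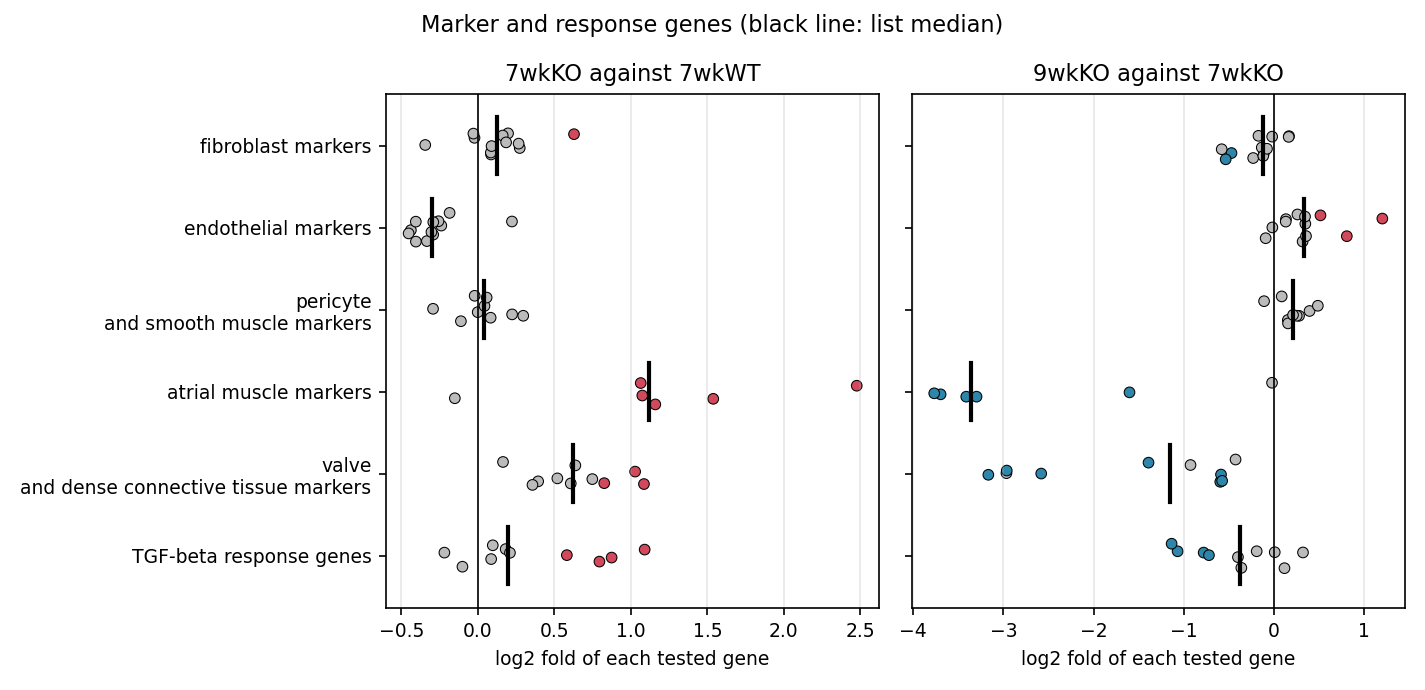
Log2 folds (x axes) of each tested fibroblast, endothelial, pericyte, atrial, valve and TGF-beta response gene (rows) in both comparisons, with red for genes called higher, blue for called lower, grey for not called and a black bar for the median of a list. The TGF-beta row also holds TGF-beta ligands and receptors. Atrial and valve markers lie mostly above 0 at 7 weeks and below 0 in the later comparison, and the 12 endothelial markers the other way (medians -0.30 and 0.33).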

How the data were processed

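Per the labels' protocols, libraries were stranded and made from poly(A) RNA of cardiac samples. The submitters' processing notes name TopHat2, Cuffdiff and mm10, without versions or settings. The 4 tables used (2 at gene and 2 at isoform level) hold 1 FPKM value for each group, deposited by the authors. Per the file headers, the authors also deposited a status, a test statistic (a score without fixed range) and its p-value and q-value for each row. Replicates enter only through the authors' test. Depth per sample is unknown, so no interval for counting error was computed.

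Log2 folds were recomputed as the ratio of both FPKM values with no pseudocount, since the deposited fold column held cells that are not numbers. The SE is the fold divided by the deposited statistic, and intervals are at 95%. The deposited p, whose smallest value is 5e-05, implies a smaller error. A call is a deposited q under 0.05 with status OK. As an alternative, p was recomputed from the statistic as a normal deviate and adjusted over all tested genes by the Benjamini-Hochberg method, a step tested on simulated data. Other alternatives changed the q threshold, the pseudocount, the FPKM minimum (0.5), the table level and the class of the multiplexins. That isoform calls were also recounted at another q and from the statistic was chosen after seeing the data. The ratios of Col5a3 to Col5a1 and of Col4a5 to Col4a6 were also outside the plan. So was the split of type IV into Col4a1 with Col4a2 and Col4a3 to Col4a6. Members and lists were chosen with earlier results of these data known. Every member of at least 0.5 was named, and in the other lists at most 4 called genes for each list and comparison by size of fold (all 5 atrial markers are named) or some of the most abundant where none was called. Some genes of these lists are not reported here. Positions are the loci of the deposited tables, from 1. Promoter windows are from RefSeq (GRCm38.p6), matched by symbol. Computation used pandas 2.3.3 and NumPy 2.4.6 in Python 3.11.15, with SciPy 1.17.1 for distributions and Matplotlib 3.10.9 for figures.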

Additional observations from a re-analysis of the deposited data

How the results depend on the processing

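With p from the deposited statistic alone, the count of called collagen genes went from 3 to 0 at 7 weeks and from 10 to 1 later (Col5a3), that of processing, receptor, breakdown and laminin genes from 2 to 0 and from 6 to 0, and that of collagen genes with a called isoform from 3 to 0 and from 10 to 0. At a q under 0.01 the 7-week count went from 3 to 1 and the later count from 10 to 8. Requiring an FPKM of at least 5 turned the type IV median from 0.46 to -0.22 at 7 weeks and from -0.64 to 0.29 later, because 3 of the 6 genes remained. Counting the multiplexins as basement membrane genes moved the later type IV median to -0.31 and that of other types from -0.19 to -0.54. The other 65 recomputed counts, class medians, shares and ratios moved by less than 1.5 times (counts), the implied SE (medians) or 1% (shares and ratios). Among single genes, 1 added to each FPKM shrank the folds of 2 of 3 genes called at 7 weeks and 5 of 10 called later by more than 1.5 times, with no change of sign; 0.1 added did so for none of them. No paired analysis was possible because the tables hold 1 value for each group, and leaving out replicates could not be run for the same reason. Depth is unknown, which leaves the precision of genes near 0.5 to the authors' test.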
